A study of Mus musculus with 5 samples.

Results

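Collagen genes were followed in the livers of mouse pups that carried both copies of Mdr2 or had lost one of them. All genes whose symbol has the form of an alpha chain (Col, a type number, the letter a, a chain number) were taken, which gave 43 genes of the 36401 in the count tables. They comprised 11 genes for fibrillar chains, 6 for basement membrane chains (type IV) and 26 for all other types. The libraries were made from total RNA of lobe 1 of the liver on day 10 of life, in BALB/C mice into which the Mdr2 knockout allele had been bred. There were 2 libraries from Mdr2+/+ (wild-type) and 3 from Mdr2+/- (heterozygous) littermates, with no treatment named. The allele is a germline loss that affects every cell of the pup. Mdr2 is the older name of Abcb4, the transporter that passes phosphatidylcholine into bile, and the series title ties low ABCB4 to inflammation in biliary atresia. Nothing in the labels states that the libraries came from different pups, and p-values therefore measure only the spread between these libraries.

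Collagens are the main structural proteins of the matrix. Each molecule is a triple helix of 3 alpha chains, so the product of a gene needs partner chains of its own type. Fibrillar collagens are secreted with end pieces that are cut off, and then pack side by side into cables. Type IV chains keep their ends and join into the sheets of basement membranes. The other types bind to fibrils, form beaded filaments or short networks, cross the cell membrane or, as multiplexins, carry sugar chains in basement membranes. In the liver, stellate cells that turn into myofibroblasts are known as the chief makers of fibrillar collagen when scars form, while hepatocytes are known for making type XVIII. Fewer cells of a type and less RNA per cell cannot be told apart in RNA of whole tissue.

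Of the 43 genes, 31 held enough counts to be tested (10 fibrillar, 5 basement membrane and 16 others). Between the genotypes, 4 of these 31 (12.9%) passed the test, set beside 12.0% of all 13959 tested genes. The genes Col18a1, Col5a1 and Col14a1 rose in heterozygous livers by 1.23- to 1.29-fold, and Col27a1 fell to 0.712 of the wild-type level. The 3 that rose are 9.68% of the tested collagens, where 6.63% of all tested genes rose, and the 1 that fell is 3.23%, where 5.41% of all tested genes fell. The share of collagens called was therefore near the background. The test was edgeR's quasi-likelihood test, with p-values adjusted by Benjamini-Hochberg over every gene tested and called under 0.05. At an unadjusted p under 0.05 in that test there were 11 of the 31 collagens (35.5%), beside 28.2% of all tested genes.

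The sequences before the start sites of 3 of the called genes and of Col3a1, the most abundant fibrillar collagen, are printed because they show how different the start regions of these genes are. They run 5′ to 3′ along the strand of the gene and end at the start site, except that of Col18a1, which ends 18 bases short of it. Sequences and start sites are from RefSeq on build GRCm38.p6. Capitals mark 3 kinds of promoter motif, each searched on both strands and none overlapping another in these windows. The TATA box was searched as TATAAA. The second motif, the CCAAT box, was searched by the letters of its name. The last of them, a box bound by general activators and rich in G and C, was searched as GGGCGG and is called the GC box.
Col18a1, chr10:77166549-77166780, minus strand: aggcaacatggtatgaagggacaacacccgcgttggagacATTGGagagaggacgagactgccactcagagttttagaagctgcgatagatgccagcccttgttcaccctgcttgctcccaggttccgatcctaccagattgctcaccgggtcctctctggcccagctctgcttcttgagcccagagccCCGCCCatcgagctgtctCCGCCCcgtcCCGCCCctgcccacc
Col5a1, chr2:27886175-27886424, plus strand: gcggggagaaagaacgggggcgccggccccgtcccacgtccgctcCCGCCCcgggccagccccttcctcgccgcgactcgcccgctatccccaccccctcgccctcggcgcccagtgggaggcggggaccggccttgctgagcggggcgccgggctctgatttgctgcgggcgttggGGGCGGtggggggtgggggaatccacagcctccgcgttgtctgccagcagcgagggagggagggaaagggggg
Col27a1, chr4:63215162-63215411, plus strand: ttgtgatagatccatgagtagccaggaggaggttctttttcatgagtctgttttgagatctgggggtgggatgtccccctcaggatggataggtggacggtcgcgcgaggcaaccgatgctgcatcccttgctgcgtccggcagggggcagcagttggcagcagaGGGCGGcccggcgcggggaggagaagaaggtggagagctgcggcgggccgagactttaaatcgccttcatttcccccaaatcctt
Col3a1, chr1:45311288-45311537, plus strand: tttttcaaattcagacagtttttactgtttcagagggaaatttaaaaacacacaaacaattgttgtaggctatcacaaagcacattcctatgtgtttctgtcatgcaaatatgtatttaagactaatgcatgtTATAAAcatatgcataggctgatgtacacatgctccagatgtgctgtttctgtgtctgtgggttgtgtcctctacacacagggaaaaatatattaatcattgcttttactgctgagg
Col18a1 and Col5a1, which rose, and Col27a1, which fell, all held GC boxes. Col14a1, the remaining called gene, is not printed and was not among the collagens found with any of the 3 motifs. It may lack a matched window. In Col18a1 there were 3, at 61, 43 and 33 bases before the start, and a CCAAT box at 210. Col5a1 held 2 GC boxes, at 205 and 73 bases before the start, and Col27a1 held 1, at 85. Col3a1 held a TATA box at 117 bases before the start and neither of the other motifs. RefSeq gives Col18a1 a second start site further downstream, and the counts per gene do not separate the starts. The Col27a1 window lies inside the GENCODE gene, whose first transcript starts further upstream.

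RefSeq windows were matched for 35 of the 43 collagens, some with more than 1 start, which made 38 windows. Within the 250 bases before the start, 57.9% of the collagen windows (22) held a GC box, compared with 32.7% of all 32851 mouse windows. A CCAAT box was present in 34.2% (13) and 33.8%, and a TATA box in 13.2% (5) and 12.4%. Only the GC box was thus more frequent in the collagen windows than in all windows by more than 1 percentage point, and no test was made. A match describes letters, not a bound factor.

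The targeted gene was checked first. Abcb4 (ENSMUSG00000042476) was at 162.1 CPM (counts relative to library size, scaled by TMM) in both wild-type libraries and at 100.6, 97.7 and 92.6 in the heterozygous ones. This is a log2 fold change (log2FC, heterozygous minus wild-type) of -0.74 with an SE of 0.06 and an edgeR adjusted p of 3.4e-04. The libraries therefore match their genotype labels. The gene lies on chromosome 5, and the 43 collagens lie on 14 chromosomes, of which chromosome 5 is not one. Library totals ran from 11944157 to 17312851 estimated counts, so that 3 counts correspond to 0.174 to 0.252 CPM.

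The levels of collagens per kilobase of transcript showed which types dominated this neonatal liver. Levels between genes were compared as RPKM, the scaled CPM divided by the length in kilobases of the longest GENCODE transcript. Summed over all collagens, RPKM was 473 and 486 in wild-type libraries and 595, 583 and 585 in the heterozygous ones. Type XVIII stood first. Col18a1, the core protein that yields endostatin, was at 231 and 209.8 RPKM in wild-type libraries and 306, 269.5 and 279 in the heterozygous ones. This single gene took 43.2 to 48.9% of the summed RPKM in wild-type and 46.3 to 51.4% in heterozygous libraries, ranges that overlap. Next came Col3a1, Col14a1, Col4a1, Col1a2, Col4a2 and Col1a1. Together with Col18a1 these 7 genes made up 89.8 to 91.1% of collagen RPKM in the 5 libraries.

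The order of these levels was clear at its top and close in its middle. Col3a1 lay at 66.2 and 80.7 RPKM in wild-type libraries and 84.6, 99.2 and 93.0 in the heterozygous ones, below Col18a1 and above every other collagen in each library. Col14a1 (32.4 and 35.6 against 41.0, 42.8 and 42.4) and Col4a1 (32.9 and 36.4 against 36.9, 36.5 and 35.5) changed places between the genotypes. In wild-type libraries these neighbours did not differ beyond their spread. Col1a2 (26.0 and 30.5 against 30.7, 36.1 and 34.2) and Col4a2 (20.2 and 24.3 against 24.4, 23.3 and 22.8) came next, followed by Col1a1 at 16.6 to 23.1 over the 5 libraries. Col5a1 (10.9 to 13.9), Col6a1 (8.89 to 10.02), Col6a2 (4.85 to 6.81), Col5a2 (3.85 to 5.22), Col4a5 (3.48 to 4.39), Col6a3 (3.44 to 4.28) and Col27a1 (2.01 to 3.11) completed the 14 highest. From Col6a2 to Col6a3 the ranges of neighbours overlapped. Col16a1 and Col13a1 were at 1.28 to 2.44 RPKM, and each of the remaining collagens stayed under 1 RPKM in every library.

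**Figure D1:**
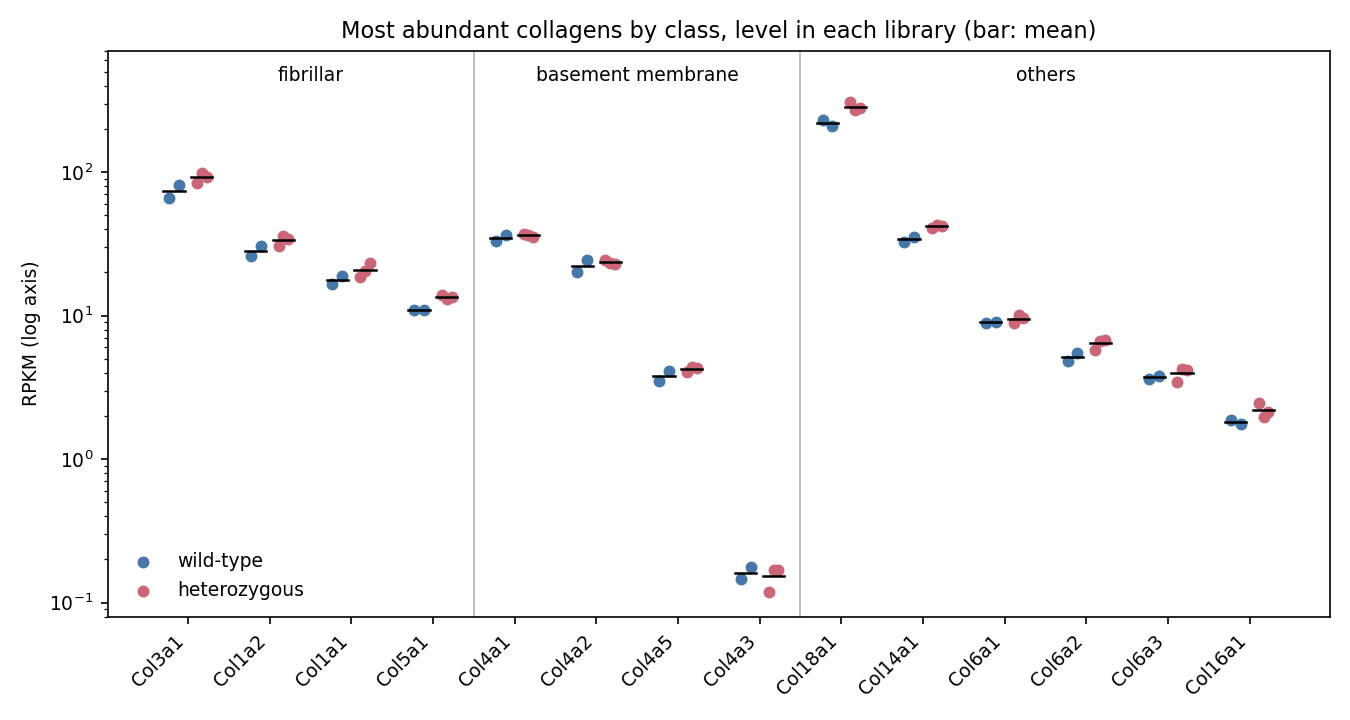
The 4 fibrillar, 4 basement membrane and 6 other collagens with the highest level over all libraries are plotted on a log axis of RPKM, a point for each library (blue wild-type, red heterozygous) and a bar for the mean. Col18a1 sits at 209.8 to 306 RPKM, above all others. The red points of the called genes Col18a1, Col14a1 and Col5a1 lie above the blue ones. So do those of Col3a1, Col1a2, Col6a2 and Col16a1, which were not called, while those of Col4a1 and Col4a2 overlap the blue ones.

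The remaining 12 collagens were too low to test. Col2a1, the fibrillar chain of cartilage, had 0 counts in every library, where 3 counts would be the limit that a count of 0 allows. Col4a6, Col10a1, Col28a1 and Col6a4 each had 3 counts over the 5 libraries, Col9a1 and Col19a1 had 2, and Col22a1 had 4. Col9a2 (38), Col23a1 (39), Col8a1 (26) and Col7a1 (17) had more, with at most 11 in any library. Changes in these genes were not detectable at this depth. Cartilage and bone markers were also at or near 0. Of these, Comp, Matn1, Matn3, Ibsp and Bglap had no count and the whole list summed to at most 0.182 CPM in any library.

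Among the 11 fibrillar collagens, 1 rose, 1 fell and 8 of the 10 tested did not pass the test. Summed fibrillar CPM was 755 and 879 in wild-type libraries and 917, 1033 and 1009 in the heterozygous ones. The groups did not overlap, but the first heterozygous library lay closer to the second wild-type library than the wild-type libraries lay to each other. The ratio of the means was 1.21, and the median log2FC of the tested members was 0.19, beside 0.00 over all tested genes. Measured from the median of all tested genes in the same decile of transcript length, the median difference was 0.10. Of the 10 tested genes 6 had a log2FC above 0.

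Col5a1 (ENSMUSG00000026837, chromosome 2, 27886425 to 28039514, plus strand, GENCODE M21 on mm10) encodes a chain of type V, which starts fibrils and sets their width. Its level was 91.9 and 91.9 CPM in wild-type libraries and 117, 109.7 and 113 in the heterozygous ones. The heterozygous libraries all lay above the wild-type ones, which were nearly equal. Mean CPM was 91.9 ± 0.00678 (SD, n = 2) and 113 ± 3.65 (SD, n = 3), a log2FC of 0.30 (SE 0.06, edgeR adjusted p = 0.0142). Antisense genes that share exon bases with Col5a1 (2810430I11Rik and Gm13372) held a mean of 1.6 and 1.0 counts per library. The call was lost without the first and without the second wild-type library (log2FC 0.30 in each). It was also lost with an offset for transcript length, alone (edgeR adjusted p = 0.112) or with the replicate number as a block (0.233). Its partner Col5a2 was at 25.5 and 32.2 CPM against 29.7, 34.6 and 31.3, with overlapping groups and a log2FC of 0.15 (95% interval -0.09 to 0.40). The third type V chain, Col5a3, was low, at 3.70 and 2.86 CPM against 5.65, 3.70 and 5.41. Its log2FC was 0.56 with an interval of 0.04 to 1.09 and an edgeR adjusted p of 0.152.

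Col27a1 (ENSMUSG00000045672, chromosome 4, 63214004 to 63334991, plus strand) moved the other way. It encodes type XXVII, a fibrillar collagen best known from cartilage. Its level was 23.7 and 23.4 CPM in wild-type libraries and 17.1, 15.3 and 17.9 in the heterozygous ones, with every heterozygous library below both wild-type ones. The means were 23.5 ± 0.229 (SD, n = 2) and 16.8 ± 1.34 (SD, n = 3), a log2FC of -0.49 (SE 0.09, edgeR adjusted p = 0.0112), or 1.40-fold lower. With the offset for transcript length the log2FC was -0.61 and the adjusted p 0.0047. The call was lost in 1 of 16 alternatives, that without the first wild-type library (adjusted p = 0.0624). Its close relative Col24a1 was at 2.51 and 2.36 CPM against 2.12, 1.58 and 1.69, also with every heterozygous library below. That log2FC of -0.46 had an interval of -0.97 to 0.05 and an adjusted p of 0.225.

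The chains of types I and III, the bulk of scar collagen, gave positive estimates that did not pass the threshold. Col3a1 (ENSMUSG00000026043) was at 368 and 449 CPM in wild-type libraries and 471, 552 and 518 in the heterozygous ones. The groups did not overlap, yet the wild-type libraries differed by more than the gap between the groups. The log2FC was 0.33 (interval 0.11 to 0.55, edgeR adjusted p = 0.0564). This gene passed in 6 of 16 alternatives, among them the DESeq2 Wald test (adjusted p = 0.0180) and limma-voom (0.0387). Without the first wild-type library its log2FC was 0.19, and without the second it was 0.48.

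Col1a2, which encodes the second chain of type I, was at 139 and 163 CPM in wild-type libraries and 164, 193 and 183 in the heterozygous ones. Its highest wild-type library almost met its lowest heterozygous one. The log2FC was 0.26 (interval 0.05 to 0.46, edgeR adjusted p = 0.0997), and it was 0.14 without the first wild-type library and 0.37 without the second. Col1a1, which encodes the main chain of type I, was at 98.3 and 112 CPM against 109.7, 122 and 137, and its groups overlapped. The log2FC was 0.22 (interval 0.00 to 0.44, adjusted p = 0.171), and Col1a1 passed in 0 of 16 alternatives, which include the DESeq2 and limma-voom tests. Its log2FC was 0.12 without the first wild-type library, 0.32 without the second and 0.14 without the last heterozygous library. Col11a1 (log2FC -0.12, interval -0.91 to 0.68) and Col11a2 (-0.18, interval -1.18 to 0.83), chains of type XI, were near or under 1 CPM, and their intervals are wide.

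Among the 6 basement membrane collagens, 0 of the 5 tested passed edgeR's test in either direction. None had an unadjusted p under 0.05 there, and DESeq2 and limma-voom also called 0. Summed CPM was 373 and 427 in wild-type libraries and 429.6, 424 and 412 in the heterozygous ones. The second wild-type library lay within the heterozygous range, and the ratio of the means was 1.05. The median log2FC was 0.07, which under the offset for transcript length became -0.04.

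Col4a1 and Col4a2, whose products build the common type IV molecule of all basement membranes, sit head to head on chromosome 8. Col4a1 runs from 11312826 down to 11198423 on the minus strand and Col4a2 from 11312805 up to 11449287 on the plus strand. Their first exons overlap by 22 bases, which are printed here on the plus strand because they are the shared start of both genes. Motifs are not marked by capitals in this stretch, which holds the letters of the GC box.
chr8:11312805-11312826: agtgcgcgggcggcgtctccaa
Col4a1 was at 218 and 241 CPM in wild-type libraries and 244, 242 and 235 in the heterozygous ones. Col4a2 was at 131 and 157 CPM against 157, 150.5 and 147. For both genes the second wild-type library reached the heterozygous values. Their log2FC values were 0.07 (interval -0.08 to 0.22) and 0.08 (interval -0.11 to 0.26), with edgeR adjusted p-values of 0.560 and 0.579. A rise by more than 0.26 on the log2 scale lies outside both intervals. Without the first wild-type library both signs turned, to -0.01 and -0.05.

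Col4a5, a chain that replaces the common ones in some basement membranes, was at 22.7 and 27.1 CPM against 26.5, 28.7 and 28.1 (log2FC 0.17, interval -0.04 to 0.37). That estimate was 0.03 without the first wild-type library and 0.29 without the second. Col4a3 and Col4a4 also sit head to head, with 71 bases between them on chromosome 1. They code for chains best known from the kidney filter and stayed at 0.81 to 1.51 CPM. Their log2FC values were -0.04 (interval -0.67 to 0.58) and -0.09 (interval -0.81 to 0.64). Without the second wild-type library the estimate of Col4a3 was 0.08.

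Among the 26 other collagens, 2 of 16 tested rose and 0 fell in edgeR's test. DESeq2 and limma-voom also called 0 lower, and 1 (Col20a1) was lower at an unadjusted p under 0.05. Summed CPM was 1639.9 and 1543 in wild-type libraries and 2121, 1944 and 1991 in the heterozygous ones, a ratio of 1.27. Col18a1 made up most of this sum, and without it the sums were 346 and 369.5 against 409.8, 436 and 430.2, a ratio of 1.19. In both forms every heterozygous library lay above both wild-type libraries. The median log2FC of the 16 was 0.20, or 0.14 without Col18a1.

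Col18a1 (ENSMUSG00000001435, chromosome 10, 77052178 to 77166548, minus strand) encodes type XVIII, a multiplexin of basement membranes that carries heparan sulfate. It was at 1294 and 1174 CPM in wild-type libraries and 1711, 1508 and 1561 in the heterozygous ones. The lowest heterozygous library stood above the highest wild-type one. The means were 1234 ± 84.9 (SD, n = 2) and 1594 ± 105 (SD, n = 3), a 1.29-fold rise with a log2FC of 0.37 (SE 0.08, edgeR adjusted p = 0.0157). With the offset for transcript length the log2FC was 0.29 and the adjusted p 0.0343. The call was lost without the second wild-type library (log2FC 0.30). It was also lost with the length offset and the replicate number as a block together (edgeR adjusted p = 0.0563). Col15a1, which encodes the other multiplexin, was at 2.73 to 3.58 CPM over the 5 libraries, with a log2FC of 0.14 (interval -0.32 to 0.60).

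Col14a1 (ENSMUSG00000022371, chromosome 15, 55307750 to 55520803, plus strand) encodes a FACIT collagen, a type that lies on the surface of fibrils. It was at 209 and 229.6 CPM in wild-type libraries and 265, 276 and 273 in the heterozygous ones. The 3 heterozygous libraries lay close together and above both others. The means were 219 ± 14.3 (SD, n = 2) and 271 ± 5.998 (SD, n = 3), a log2FC of 0.31 (SE 0.07, edgeR adjusted p = 0.0186). The call was lost without the first wild-type library (log2FC 0.24) and without the second (edgeR adjusted p = 0.0674) or the third (0.0535) heterozygous library. It was also lost with the offset for transcript length, alone (0.107) or with the replicate number as a block (0.182).

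Of the 9 FACIT genes 5 were tested, and none of the other 4 was called. Col16a1 was at 9.71 and 9.17 CPM against 12.7, 10.3 and 11.2, with a log2FC of 0.26 (interval -0.01 to 0.54, edgeR adjusted p = 0.201). Col20a1 was at 3.63 and 2.44 CPM against 2.04, 1.58 and 1.98, with every heterozygous library below. Its log2FC of -0.73 (interval -1.28 to -0.18) had an adjusted p of 0.0845 and was -0.40 without the first wild-type library. Exons of Col20a1 share 79 bases with a gene on the same strand, BX649560.1, so that reads from both genes cannot be fully told apart. Col12a1 (log2FC -0.07) and Col9a3 (-0.14) had overlapping groups.

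Type VI chains form beaded filaments around cells, and all 5 tested genes of the 6 had a log2FC above 0. So did 58.8% of all tested genes within the length span of the tested collagens. Of the 5, 0 were called by edgeR, DESeq2 or limma-voom in either direction, and 1 (Col6a2) had an unadjusted edgeR p under 0.05. Col6a1 was at 36.5 and 37.0 CPM against 36.6, 41.1 and 39.4 (log2FC 0.09, interval -0.08 to 0.26). Col6a2 was at 23.8 and 27.0 CPM against 28.2, 32.8 and 33.4, with groups apart (log2FC 0.32, interval 0.10 to 0.54, adjusted p = 0.0657). Col6a3 was at 36.8 and 38.2 CPM against 34.8, 43.2 and 42.5, with the first heterozygous library the lowest of all (log2FC 0.10, interval -0.11 to 0.32). With the length offset its log2FC was -0.04. The 3 common type VI chains thus did not show the same separation. Col6a5 and Col6a6, at 0.79 to 8.32 CPM, had log2FC values of 0.55 (interval -0.11 to 1.22) and 0.43 (interval -0.01 to 0.88). The estimate of Col6a5 was 0.27 without the first wild-type library and 0.84 without the second.

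The tested collagens that cross the membrane were Col13a1, Col17a1 and Col25a1. Col13a1, which sits at sites of cell adhesion, was at 6.01 and 4.04 CPM against 7.53, 6.62 and 7.56. Its groups did not overlap, and its log2FC was 0.50 (interval 0.09 to 0.92, edgeR adjusted p = 0.108). It was 0.83 without the first wild-type library and 0.27 without the second. Col17a1, known from the skin, had a log2FC of 0.45 (interval -0.37 to 1.27) at 0.46 to 0.81 CPM, and Col25a1 one of -0.16. Col8a2, the single short-chain network gene tested, had a log2FC of -0.15 with overlapping groups.

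**Figure D2:**
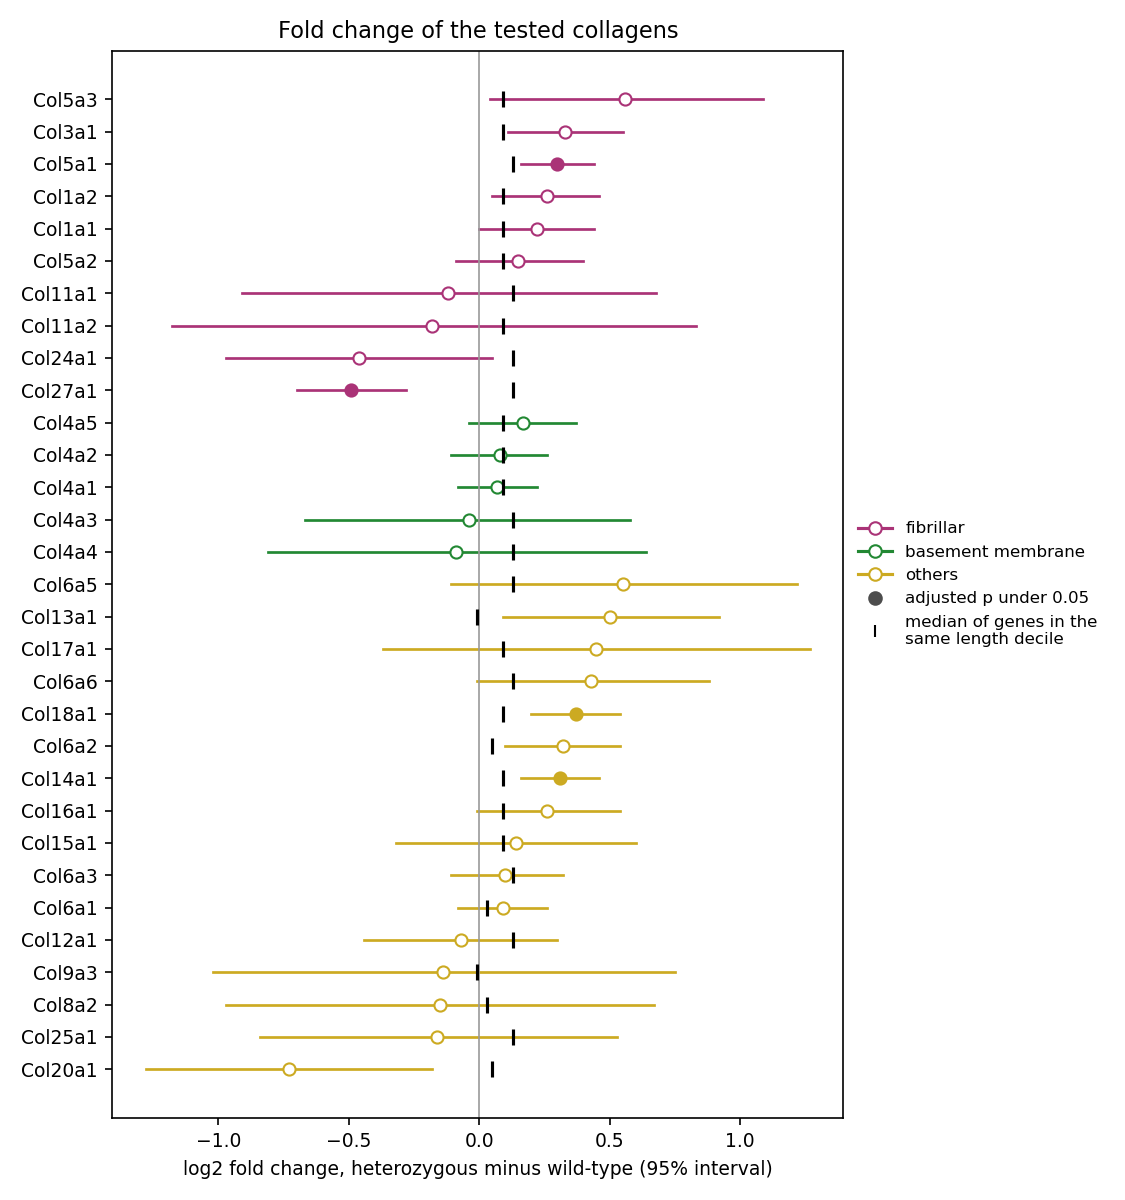
Each point is the log2 fold change of a tested collagen, heterozygous minus wild-type, with its 95% interval, coloured by class and filled where the edgeR adjusted p is under 0.05. The short black bars are the median log2FC of all tested genes in the same decile of transcript length. Of the called genes, Col18a1 (0.37), Col14a1 (0.31) and Col5a1 (0.30) lie to the right of their bars with intervals that do not reach them, and Col27a1 (-0.49) lies far to the left of its own. Intervals of uncalled genes also clear their bars, those of Col3a1, Col6a2 and Col13a1 to the right and of Col20a1 and Col24a1 to the left. The intervals are from the fit without the length offset, and with that offset only Col18a1 and Col27a1 were called.

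Summed over all 43 genes, collagen CPM was 2768 and 2849.9 in wild-type libraries and 3468, 3401 and 3413 in the heterozygous ones. The heterozygous sum was 1.22 times the wild-type sum, and 1.16 times without Col18a1 (1474 and 1676 against 1757, 1893 and 1851). In both sums every heterozygous library lay above both wild-type ones. Over the 31 tested genes, 12 (38.7%) had all heterozygous libraries above the wild-type ones, where 22.9% of all tested genes did, and 3 (9.68%) had them all below, where 22.7% did. Groups without overlap in either direction thus occurred in 15 collagens, and in 45.5% of all tested genes.

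**Figure D3:**
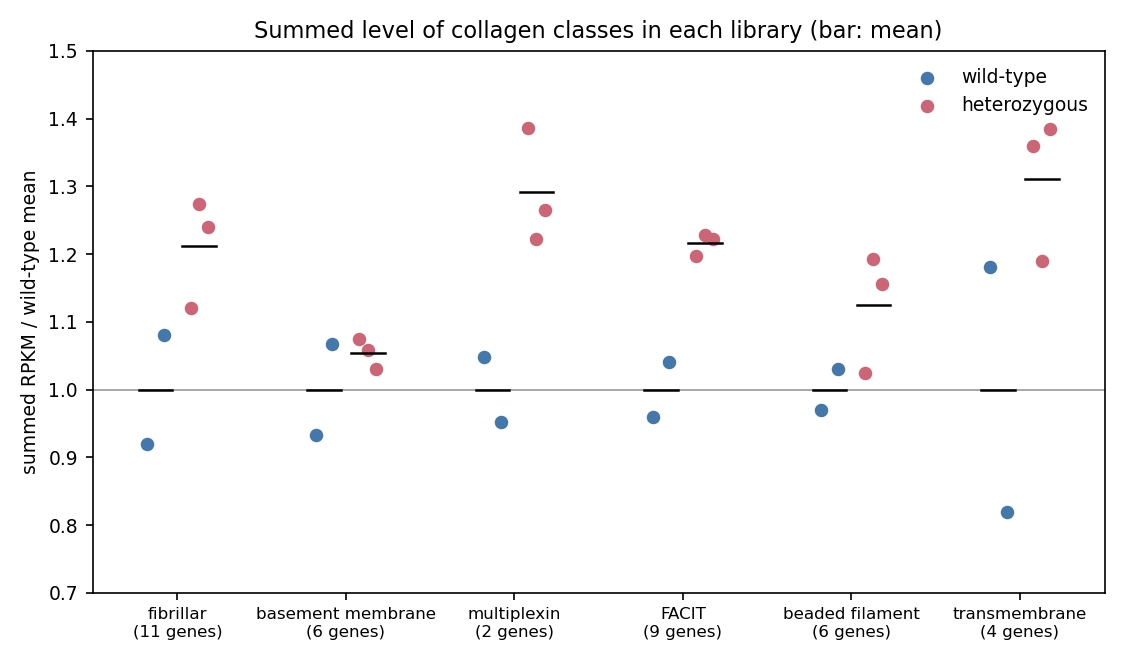
The summed RPKM of the collagen classes named below is plotted for each library, divided by the mean of the 2 wild-type libraries (blue wild-type, red heterozygous, bars for the means). The heterozygous means stand at 1.21 for fibrillar, 1.05 for basement membrane, 1.29 for multiplexin, 1.22 for FACIT, 1.12 for beaded filament and 1.31 for transmembrane collagens. The groups overlap in the basement membrane and beaded filament classes, and 1 heterozygous transmembrane point lies just above the higher wild-type one.

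Collagen transcripts are long, and in these libraries log2FC climbed with transcript length over all genes. Sorted into deciles by the longest transcript, the median log2FC of all tested genes went from -0.17 in the shortest decile (56 to 1270 bases) to 0.13 in the longest (6697 to 123179 bases). In that longest decile 16.1% of genes rose and 1.11% fell. The median tested collagen was 6450 bases long and the median tested gene 3279. Of the 31 tested collagens, 14 fell in the ninth decile and 11 in the longest, so that 27 lay in the 3 longest deciles.

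Read against genes of their own length, the collagens stood out less. Their median log2FC was 0.14, and 20 of 31 (64.5%) were above 0. Among the 7281 tested genes with transcripts of 3046 to 11511 bases, the span of the tested collagens, the median was 0.05 and 58.8% were above 0. In this span 8.64% of genes rose, 3.09% fell and 30.1% had all heterozygous libraries above the wild-type ones, beside 9.68%, 3.23% and 38.7% of the collagens. Against the median of its own decile, 17 of 31 collagens lay higher, by a median difference of 0.07 over the 31. With a length offset in the edgeR fit, 2 collagens were called, Col18a1 higher and Col27a1 lower, while 8.96% of all tested genes were called, 5.06% higher and 3.90% lower. The median log2FC was then 0.09 for fibrillar, -0.04 for basement membrane and 0.13 for other collagens.

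Across the collagens themselves, the Spearman rho of log2FC and length was -0.11 over 31 genes. Over the 13571 tested genes with a known length it was 0.27. The spans of length differ, since 27 of the 31 collagens lay in the 3 longest deciles, so the values cannot be compared directly. These are descriptions across genes, which share libraries and are not independent replicates. Col27a1 is 7612 bases long and fell, and Col13a1, with 3162 bases, is among the shortest and had a log2FC of 0.50. Single genes such as these do not describe a trend. Whether the length trend has any part in the differences of single collagens was not tested beyond the offset.

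**Figure D4:**
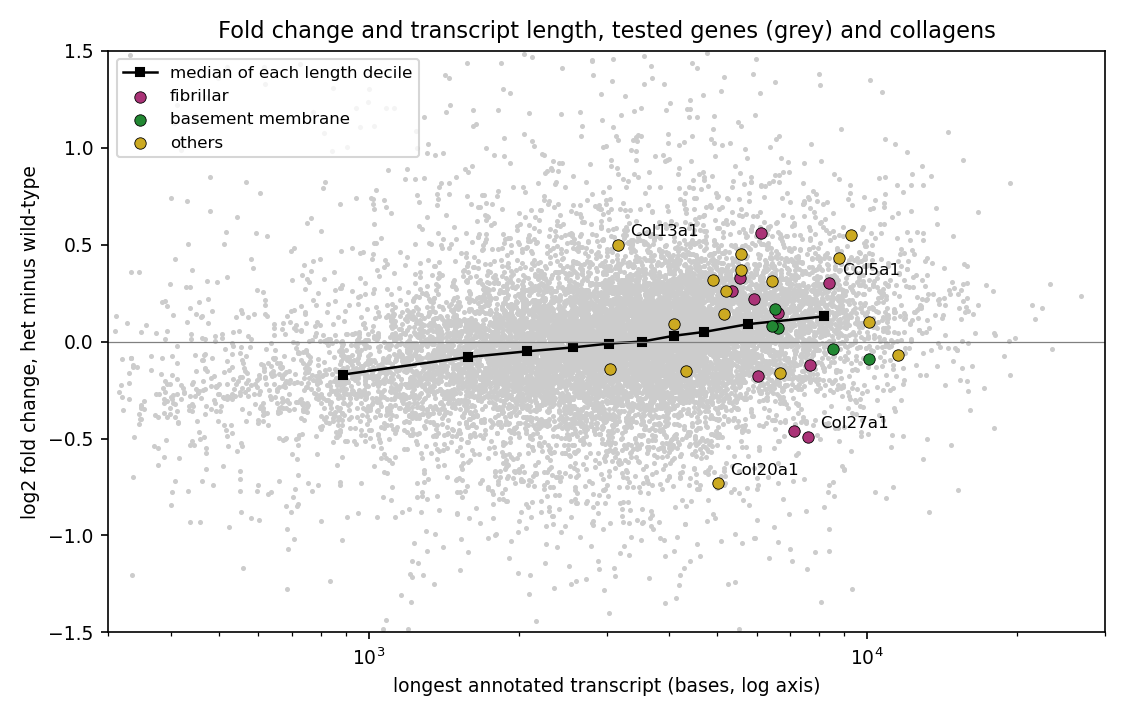
Log2 fold change (heterozygous minus wild-type) is plotted against the longest annotated transcript in bases on a log axis, for tested genes (grey) and collagens (coloured by class), with black squares at the median of each decile of length. The medians climb from -0.17 to 0.13, the collagens cluster in the 3 longest deciles, and Col27a1 and Col20a1 lie below the line. There are 125 tested genes outside the axes.

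Ratios were then taken between chains that share a molecule, a start region or a neighbourhood. The RPKM ratio of Col4a1 to Col4a2 was 1.63 and 1.499 in wild-type against 1.51, 1.57 and 1.56. That of Col1a1 to Col1a2, which share type I, was 0.638 and 0.622 against 0.603, 0.569 and 0.675. In both cases the genotypes overlapped. The ratio of Col5a1 to Col5a2, both of type V, was 2.84 and 2.25 against 3.11, 2.50 and 2.85, with a wide spread in each genotype and overlap. The ratio of Col6a1 to Col6a2, both of type VI and neighbours on chromosome 10, was 1.83 and 1.64 against 1.56, 1.499 and 1.41, with all heterozygous values lower. That of Col3a1 to Col1a1 was 3.99 and 4.26 against 4.57, 4.84 and 4.03, with overlap. Col3a1 and Col5a2 lie tail to tail on chromosome 1, 24614 bases apart. The share of collagen RPKM held by Col4a1 and Col4a2 was 11.2 and 12.5% in wild-type libraries and 10.3, 10.3 and 9.96% in the heterozygous ones. The share of Col1a1, Col1a2 and Col3a1 overlapped, at 23.0 and 26.8% against 22.5, 26.7 and 25.7%.

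The genes that make, shape, bind and break down collagen were read from 8 lists with 125 measured genes, of which 110 were tested. In edgeR's test 10 rose (9.09%) and 4 fell (3.64%), beside 6.63% and 5.41% of all tested genes, and the median log2FC was 0.09. With the length offset 7 rose and 4 fell.

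Inside the cell, prolyl and lysyl residues of the chains are modified before they fold. Of 15 tested modification genes 1 rose and 1 fell, where 6.63% of all tested genes rose and 5.41% fell. Glt25d1 (Colgalt1), which adds galactose to hydroxylysine, rose from 45.2 and 40.4 CPM to 52.4, 54.6 and 53.3 (log2FC 0.32, edgeR adjusted p = 0.0203). P4hb, the shared subunit of prolyl 4-hydroxylase and a disulfide isomerase with many other clients, fell from 1138 and 1169.8 CPM to 921, 1004 and 912 (log2FC -0.29, adjusted p = 0.0228). The groups were apart for both genes. Plod1 (log2FC 0.11) and Ppib (-0.16) did not pass. Of 10 genes for folding and export 1 rose, Mia2, which helps load large cargo at the exit sites of the endoplasmic reticulum. It went from 12.2 and 16.3 CPM to 25.9, 25.9 and 20.01 (log2FC 0.75, edgeR adjusted p = 0.0143). No transcript length was matched for Mia2, so the length offset left it unadjusted. Ctage5, of the same list and more abundant, was at 138 and 156 CPM against 160, 153 and 156. Ctage5 did not pass (log2FC 0.09, edgeR adjusted p = 0.435). Whether the entries Mia2 and Ctage5 stand for separate genes was not checked, so the rise of Mia2 holds for that entry alone. Serpinh1, the collagen chaperone HSP47, was at 66.4 and 65.0 CPM against 50.5, 59.8 and 57.2 (log2FC -0.23, adjusted p = 0.0855). Sec23a (log2FC 0.23) and Tmem38b (0.27) did not pass either.

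Outside the cell, end pieces are cut off and fibrils are crosslinked, and of 11 tested genes for these steps 2 fell and 0 rose in edgeR's test. DESeq2 and limma-voom also called 0 higher, and 2 genes were higher at an unadjusted p under 0.05. Among all tested genes edgeR called 5.41% lower and 6.63% higher. Pcolce2, which enhances removal of the C-terminal piece, fell from 11.8 and 8.92 CPM to 6.75, 5.46 and 5.64 (log2FC -0.82, edgeR adjusted p = 0.0126). Adamts14, a protease for the N-terminal piece, fell from 5.48 and 5.89 CPM to 3.85, 3.64 and 3.08 (log2FC -0.69, adjusted p = 0.0308). Both had every heterozygous library below both wild-type ones. Adamts2 (log2FC 0.22) and the crosslinking enzyme Loxl2 (0.20) did not pass.

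Of 13 tested genes for breakdown and its inhibitors 3 rose and 0 fell, with a median log2FC of 0.20. Among all tested genes 6.63% rose and 5.41% fell, and a list this short gives only a rough share. Mmp9, a gelatinase, rose from 1.65 and 1.51 CPM to 4.55, 5.64 and 4.88 (log2FC 1.66, edgeR adjusted p = 0.00187). Mmp8, the collagenase of neutrophils, rose from 2.05 and 1.60 CPM to 3.69, 5.34 and 3.43 (log2FC 1.17, adjusted p = 0.0224). Both are stored in neutrophil granules, and 7 of 7 neutrophil and precursor markers rose as well, with a summed level of 105 to 154 CPM in wild-type and 345 to 443 in heterozygous libraries. The part of these cells in the result was not tested. Mmp14, the membrane-bound collagenase of many cell types, rose from 79.0 and 79.1 CPM to 99.1, 96.3 and 90.4 (log2FC 0.27, adjusted p = 0.0272). Mmp2, another gelatinase, was at 28.6 and 28.1 CPM against 31.8, 37.5 and 32.5 (log2FC 0.26, adjusted p = 0.0867). Timp1, an inhibitor known to rise in liver scarring, was too low to test, at 0.726 and 0.252 CPM against 0.471, 0.425 and 0.407.

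Of the partners of basement membrane collagen 2 of 15 tested rose and 0 fell, beside 6.63% and 5.41% of all tested genes. Lama2, a laminin chain known from muscle and nerve, rose from 11.2 and 10.6 CPM to 15.1, 14.7 and 15.3 (log2FC 0.46, edgeR adjusted p = 0.0169). Lamb1, a common laminin chain, rose from 24.6 and 24.2 CPM to 30.6, 29.0 and 29.8 (log2FC 0.29, adjusted p = 0.0352). With the length offset neither passed (adjusted p = 0.0733 and 0.115). Lamb2 (log2FC -0.21) and Nid2 (0.23) did not pass.

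Of 19 tested partners of fibrils 3 rose and 1 fell, beside 6.63% and 5.41% of all tested genes, with a median log2FC of 0.19. Fibronectin (Fn1), which hepatocytes also secrete into plasma, rose from 3248 and 3017 CPM to 3749, 3596 and 3621 (log2FC 0.22, edgeR adjusted p = 0.0494), but not with the length offset (adjusted p = 0.392). Thbs1, a matrix protein that can activate latent TGF-beta and is abundant in platelets, rose from 19.1 and 14.6 CPM to 24.8, 26.3 and 24.4 (log2FC 0.57, adjusted p = 0.0139). Prelp, which tethers fibrils to basement membranes, rose from 32.2 and 29.2 CPM to 37.1, 39.3 and 37.3 (log2FC 0.30, adjusted p = 0.0302). Periostin (Postn) fell from 74.0 and 83.6 CPM to 66.1, 67.7 and 65.4 (log2FC -0.24, adjusted p = 0.0492). In each of these 4 genes the groups were apart. The estimate for Postn was -0.15 without the second wild-type library.

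These 14 calls in the pathway lists were not equally stable. Mmp9 was called in all 16 alternatives. Mia2, Pcolce2 and Thbs1 were called in 15, Mmp8 in 13, Mmp14 in 12, Glt25d1 in 11 and P4hb and Lama2 in 10. Adamts14 was called in 9, Postn in 8, Prelp in 7, Fn1 in 6 and Lamb1 in 5. Leaving out the first wild-type library ended 9 of the 14 calls and leaving out the second ended 11. Leaving out the first heterozygous library ended 6, and leaving out the second or the third ended 8 each.

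Neither receptors nor upstream signals passed the test. Of 8 tested collagen receptors and 19 tested genes of TGF-beta and PDGF control, 0 rose and 0 fell in edgeR's test, nor did any by DESeq2 or limma-voom. At an unadjusted p under 0.05 in edgeR's test there were 1 receptor and 2 control genes, all higher, beside 28.2% of all tested genes. Itgb1, the shared subunit of the collagen-binding integrins, had a log2FC of 0.11 and Ddr2, a receptor kinase for fibrillar collagen, one of 0.28. Gp6, the collagen receptor of platelets, was at 0.264 and 0.252 CPM against 0.471, 0.789 and 0.756 (log2FC 1.38, adjusted p = 0.0798), and Gpr56 had a log2FC of -0.08. Smad2 was at 9.84 and 11.1 CPM against 14.1, 14.1 and 12.3 (log2FC 0.37, adjusted p = 0.0676). Smad3 (0.23), Pdgfa (0.27) and Pdgfb (0.66) had log2FC values above 0 with adjusted p-values of 0.178, 0.306 and 0.140.

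Markers of the cells that make collagen were set beside these results. The hepatocyte markers Alb (119084 to 146449 CPM), Apoa1 (13959 to 16859.9) and Ttr (13248 to 14733) were high in all libraries, as liver RNA should have them. Of 14 stellate cell markers 1 rose and 0 fell, beside 6.63% and 5.41% of all tested genes. The summed level was 646 to 690 CPM in wild-type and 736 to 765 in heterozygous libraries. The marker that rose was Reln, at 188 and 197 CPM against 274, 279.8 and 250.2 (log2FC 0.48, edgeR adjusted p = 0.00382). Without Reln the sums were 458 and 493 against 485, 485.5 and 486, which overlap. Colec10 (log2FC 0.19) did not pass. Markers of myofibroblasts and smooth muscle (6 genes, 4 tested and 0 called by edgeR, DESeq2 or limma-voom, 0 at an unadjusted p under 0.05) stayed low, with Acta2 at 7.53 to 15.3 CPM, Tagln at 11.9 to 15.8 and Myh11 at 1.40 to 7.16, and the second heterozygous library the highest for Acta2 and Myh11. Of the list only Tagln was highest elsewhere, in the second wild-type library (15.8 CPM). The second heterozygous library was also the highest for Col3a1 and Col1a2, but Col1a1 was highest in the third (137 CPM). The part of these cells was not tested.

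In 5 other lists no marker passed edgeR's test. The 8 portal fibroblast markers, with Eln, Mfap4 and Fbln2 the highest, summed to 79.6 to 100.1 CPM in wild-type and 92.9 to 100.6 in heterozygous libraries. The 6 vascular endothelial markers, led by Cdh5, Pecam1 and Tie1, summed to 96.9 to 101 CPM and 99.7 to 109. The 8 cholangiocyte markers, with Spp1 and Pkhd1 among the highest, summed to 111 to 124 CPM and 110.1 to 118. The 5 mesothelial markers, led by Upk3b, Msln and Gpm6a, summed to 22.1 to 32.4 CPM and 16.1 to 24.8, and the 6 Kupffer cell markers, led by Clec4f, Csf1r and Cd5l, to 262 to 386 and 303 to 364. All of these ranges overlapped. DESeq2 and limma-voom also called 0 of them. An unadjusted edgeR p under 0.05 occurred for 1 portal fibroblast, 2 cholangiocyte, 1 mesothelial, 1 Kupffer cell and 0 vascular markers. Over all tested genes 28.2% had such a p-value. Of 8 sinusoidal endothelial markers (Stab2, Kdr, Clec4g the highest) 3 fell, Clec4g, Oit3 and Fcgr2b, with log2FC values of -0.40, -0.28 and -0.37. The summed level of the 8 overlapped, at 349.6 to 363 CPM against 333 to 357. Among all tested genes 5.41% fell and 6.63% rose. Of 8 hepatocyte markers 1 rose and 1 fell, Cps1 and Apoa1. Of 7 erythroid markers 6 fell, led by Hba-a1, Hba-a2 and Slc4a1 in level (2873 to 3586 and 1708 to 1912 CPM). The neutrophil markers were led by S100a9, Ngp and S100a8. Of the muscle markers only Acta1, at 5.30 to 7.07 CPM, was high enough to test, with Tnni2 and Ckm at most 0.243 CPM and Myh4 at 0. Of the cartilage and bone list, Acan and Sost reached at most 0.182 CPM. The part of the blood cell differences in the collagen values was not tested.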

How the data were processed

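RNA of 5 liver libraries was sequenced after TruSeq library preparation, per the labels' protocols. TopHat and build mm10 are named in the submitters' processing notes. The sources used here do not name the counting tool or the annotation, or say if strand was used. The authors deposited estimated counts per Ensembl gene for each library (36401 genes), not scaled to depth or length, of which 33.9 to 37.3% of values above 0 were whole (tolerance 1e-06). Floors cover counting error only, while 95% intervals of fold changes come from the edgeR fit and include the spread between libraries.

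The estimated counts were rounded (201 to 309 counts per library), filtered with filterByExpr (minimum count 10; 13959 genes with 99.9% of counts) and scaled by TMM. Genotypes were compared by the two-sided quasi-likelihood test of edgeR 4.0.16 in R 4.3.3 without covariates, adjusted by Benjamini-Hochberg over every gene tested, at 0.05. Other fits used limma 3.58.1 and DESeq2 1.42.0, and summaries and figures Python 3.11.15. Transcript lengths came from GENCODE M21 (31782 identifiers matched, and 97.2% of tested genes have a length). The 16 alternatives were 3 scalings, 2 filters, 2 other tests, offsets for length and GC content, the replicate number as a block with and without the length offset, and each library left out. In simulated data with the real means and library sizes (13810 genes), 48.5% of 66 genes changed by 0.5 on the log2 scale, 85.1% of 67 changed by 1 and 100% of 62 changed by 2 were recovered, and 6.79% of calls fell on unchanged genes. Far fewer genes changed there than were called in the real data, the spread depended on level alone, and no length trend was included. Changes as small as the called collagen rises (0.30 to 0.37) were not simulated. All pairs of libraries differed by more than sampling noise (chi-square per degree of freedom at least 5.3).

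The collagens and the other lists were chosen with earlier results of these data known. The text names Abcb4, every called collagen, the 4 fibrillar, 4 basement membrane and 6 other collagens with the highest level per kilobase, collagens whose groups do not overlap with a log2 fold change of at least 0.5 in size, the remaining collagens by name, up to 4 genes of each pathway list by p-value and the 3 highest markers of each cell type. Markers named beside these are the called ones of their list and those at 0. A few markers chosen this way are not reported here.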

Additional observations from a re-analysis of the deposited data

How the results depend on the processing

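With 2 wild-type libraries, each collagen call rests on few values. The collagen calls were the same 3 higher and 1 lower under 3 other scalings, the filter of at least 10 counts in 2 libraries and the GC offset. The split of all calls moved from 925 higher and 755 lower to 704 and 936 with library size alone and to 782 and 894 with upper-quartile scaling. Of the collagens, 7 rose with no filter, 1 with the length offset and 1 to 5 when a library was left out, and 0 or 1 fell. The extremes were 1 without the first wild-type library, where only Col18a1 was called, and 5 without the first heterozygous library, where Col3a1 and Col6a2 joined. Where 1 wild-type library is left, it is assumed to vary like the heterozygous ones. Of the pathway genes, 4 to 6 rose and 1 or 2 fell when a library was left out, and 2 fell by the DESeq2 Wald test. Over all genes, leaving out a library gave 697 to 1174 calls in place of 1680.

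The class medians ranged, when a library was left out, from 0.05 to 0.31 for fibrillar, from -0.05 to 0.14 for basement membrane and from 0.05 to 0.23 for other collagens. The basement membrane median was -0.04 with the length offset, and that of other collagens was 0.13 with it and 0.16 with library size alone. Alternatives for single genes were tabulated for 19 of the tested collagens, those named for a call, a level or a separation. Among these 19, signs turned for 4, none of them called under any setting. The log2 fold change of Col4a3 became 0.08 without the second wild-type and 0.09 without the first heterozygous library (range on leaving out a library -0.19 to 0.09), and that of Col6a3 became -0.04 with the length offset and -0.10 with it and the replicate block. That of Col4a1 became -0.04 with the length offset, -0.03 with both and -0.01 without the first wild-type library, and that of Col4a2 -0.02, -0.00 and -0.05 (up to 0.22 without the second wild-type library). The causes were not tested. Of the other values of these 19 collagens, 272 stayed on their side of the threshold, 10 crossed it upward and 12 downward, and for pathway genes these numbers were 434, 3 and 72.

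Replicate numbers 1 and 2 occur in both genotypes, and whether same-numbered libraries share more than a number was not tested. Their deviations from the group means correlated by 0.03. The value for crossed numbers, -0.03, is not a second observation, since the deviations of the 2 wild-type libraries mirror each other. With the replicate block edgeR called 4 collagens higher (Col3a1 joined), 1 lower and 1277 genes in all, with 6 pathway genes higher and 1 lower and a median of 0.24 for the other collagens. With the replicate block and the length offset together it called 0 collagens higher (5 at an unadjusted p under 0.05) and 1 lower (Col27a1), 977 genes in all, and 5 pathway genes higher and 2 lower. The class medians were then 0.04 for fibrillar, -0.03 for basement membrane and 0.17 for other collagens.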
